A study of Nothobranchius furzeri with 12 samples.

Results

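Genes with high transcript levels in the coloured tails of both strains were examined in RNA from tail fins of Nothobranchius furzeri, the turquoise killifish, which lives in seasonal pools of Africa. The set holds 115 of 20788 entries in the deposited table, each entry being 1 RefSeq transcript. A gene belonged to it when its mean over the 12 libraries was at least 10 normalized reads, when the coloured tails exceeded females of the same strain by at least 2 on the log2(value + 1) scale in each strain, and when the lowest tail library lay above the highest female library in each strain. A further 5 entries that meet these thresholds were set aside by the definition of the set. The genes were thus chosen by their tail-against-female values in each strain, which are given as descriptions with no test, and they are tested only in contrasts that the choice did not use.

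The libraries came from the red tail of strain MZCS002, the yellow tail of strain GRZ-BELL, and the matching tail region of females of each strain, with 3 biological replicates per group per the design text. Neither age nor treatment is given in the sources used here, and the labels do not state the sex of the fish with coloured tails, so colour cannot be told apart from sex in the tail-against-female contrasts. Each colour was sampled in a single strain, so colour cannot be told apart from strain between the tails. Each library was made from a piece of fin that holds several cell types. In such bulk samples, more cells of a type and more RNA per cell cannot be told apart.

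Library totals, recovered from the deposited values, ran from 5495553 to 17053983 reads. The smallest was MZCS002 female 2, in which 3 reads equalled 9.43 normalized reads against 2.04 to 4.12 in the other libraries. A 0 in it therefore limits a level less tightly. Keratin gene krt5, a marker of epidermis, and the fin fold gene and1 were measured in all 4 groups, with group means of 760100 to 1131416 and 1118 to 4824 normalized reads. Without MZCS002 female 2 the same rule gave 105 genes, of which 101 were in the set.

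Fish colour comes from several types of pigment cell that descend from the neural crest. Melanophores make melanin with tyrosinase-related enzymes inside melanosomes, xanthophores hold pteridines and carotenoids, and iridophores stack guanine crystals made by purine synthesis. In zebrafish, Mitfa directs melanophores, Tfec iridophores and Pax7 factors xanthophores, and xanthophores also need signals through the Csf1 receptor.

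Of the 15170 entries tested, 234 (1.54%) met the tail-against-female conditions in MZCS002 and 236 (1.56%) met them in GRZ-BELL. Both sets of conditions were met by 120 entries, which is 51.3% of the former list and 50.8% of the latter. The comparisons share no library, but both set coloured tails against females. The 115 genes are 0.758% of the tested entries. Of these, 83 matched a gene of the RefSeq table, 56 carried a symbol, and 59 are known here only by identifier. All 115 passed the filter on low values by definition, and 55 of them had a mean under 10 in the 6 female libraries, so they passed it through the coloured tails. Another 10 entries met the remaining conditions with a mean under 10.

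**Figure D1:**
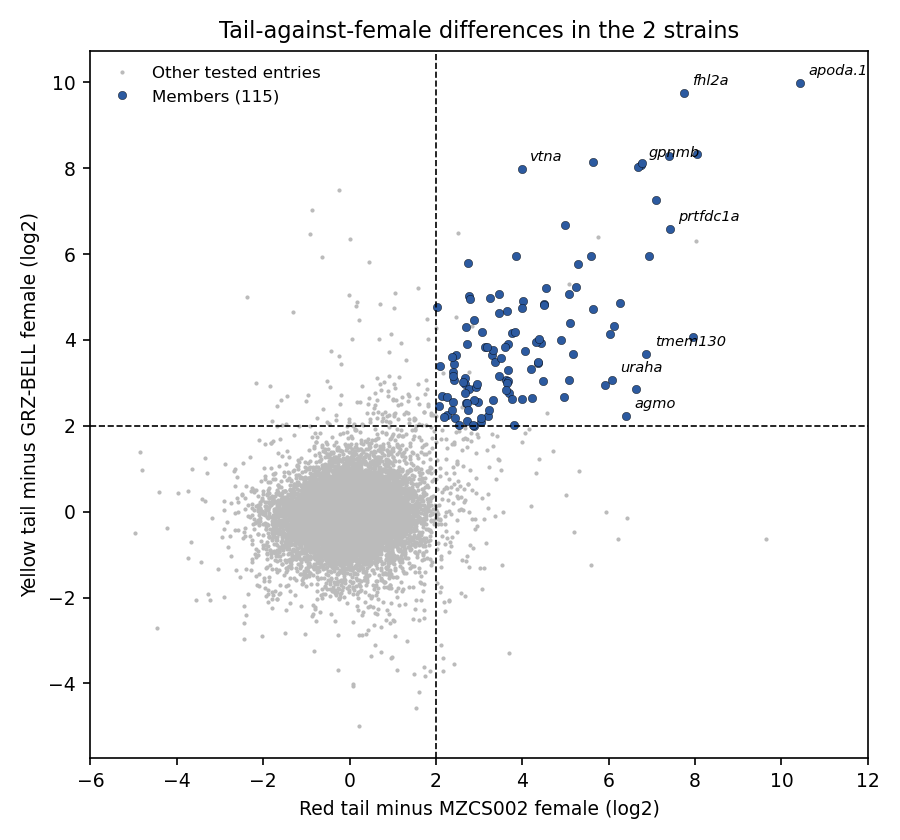
Log2 difference of red tails from MZCS002 females (horizontal axis) and of yellow tails from GRZ-BELL females (vertical axis) for each of the 15170 tested entries, with the 115 genes of the set as large points and dashed lines at the threshold of 2. The set reaches 10.44 in MZCS002 and 9.99 in GRZ-BELL, both for apoda.1, and the cloud of other entries is centred near 0.

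The median gene of the set differed by 3.65 (log2) in MZCS002, with a range of 2.04 to 10.44, and by 3.61 in GRZ-BELL, with a range of 2.01 to 9.99. Over all tested entries the medians were 0.014 and -0.025. The difference was larger in MZCS002 for 56 genes and larger in GRZ-BELL for 59. For 107 of the 115, each of the 6 tail libraries lay above each of the 6 female libraries, across strains. The choice favours this, since it sets tails above females within each strain. The share over all tested entries was not computed. In the tails their abundance was like that of other genes by the median, which for their group means was 215 normalized reads in red and 198 in yellow tails, against 206 and 203 for all tested entries. In females, where the choice itself requires levels below those of the tails, the medians were 11.4 and 10.9 against 204 and 201. Just inside the threshold lay XM_015968448 (smaller difference 2.01, in GRZ-BELL), XM_015968109 (2.01) and XM_015972351 (2.01). Just outside it lay clstn2a (2.00, rounded up from a value below the threshold, in MZCS002), XM_015961361 (1.94) and slc22a7a (1.93).

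**Figure D2:**
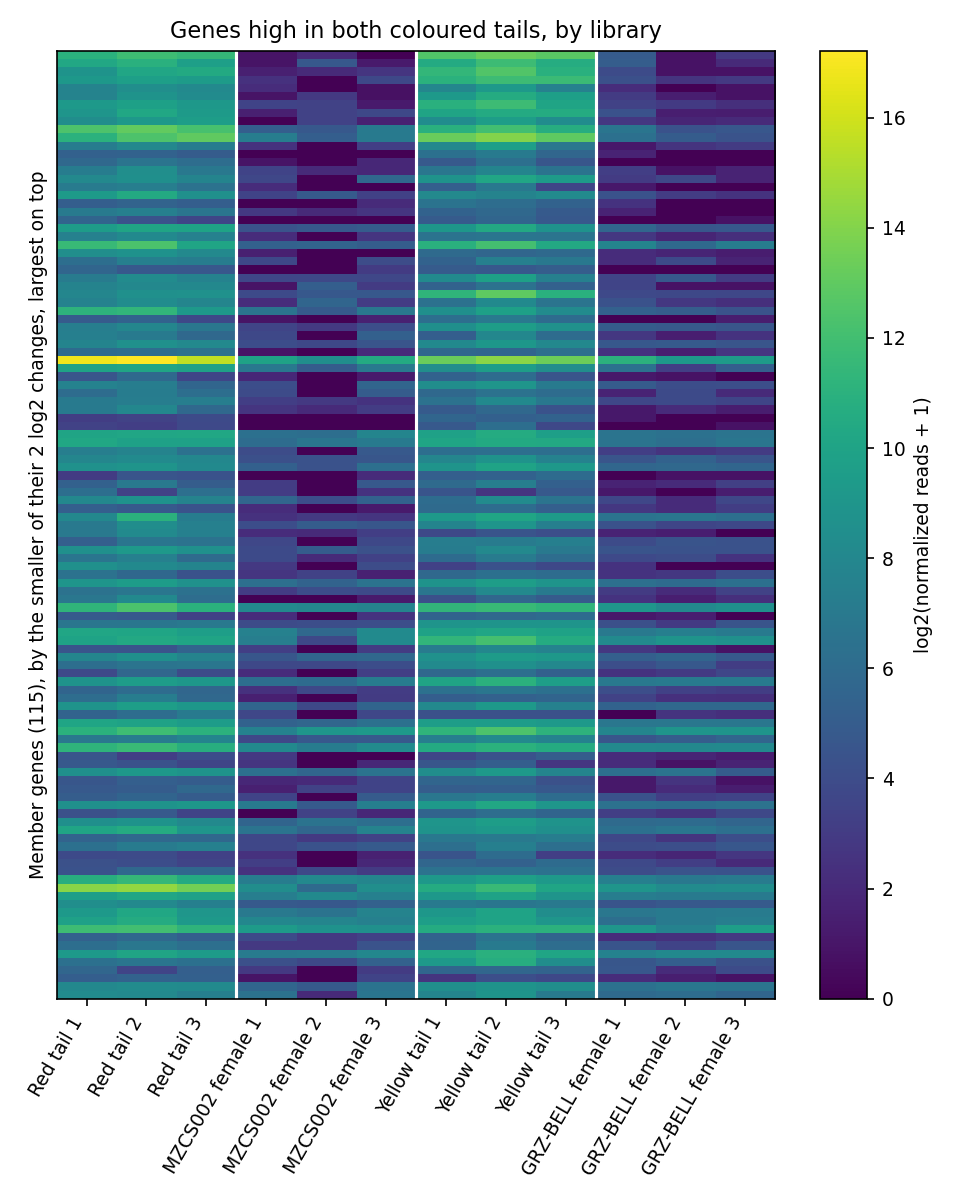
Log2(normalized reads + 1) of the 115 genes (rows, sorted by the smaller of their differences) in the 12 libraries (columns), with white lines between groups. As the choice requires, rows are brighter in the red and yellow tails than in the females of the same strain. The brightest row is tmem130.

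Genes of the pigment lists made up 14 of the 115. From the melanin list came gpnmb, rab38b, trpm1b, tspan10, mlana and tyrp1b, and from the pteridine list csf1b and aox6. From the guanine list came apoda.1, fhl2a, prtfdc1a, pnp5a and tfec, and from the carotenoid list plin6. No gene of the neural crest list was among them. The entries set aside although they meet the thresholds are also on these lists: tyr on the melanin list, csf1ra, gch2 and pax7a on the pteridine list, pax7a also on the neural crest list, and pnp4a on the guanine list. These lists hold 143 symbols, of which 80 were tested. Over all tested entries, the share in the set was 0.758%. The lists were drawn up with earlier results of these data known, so the count is a description. The genes apoda.1, fhl2a and prtfdc1a were placed on the guanine list with their values known.

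Of 24 tested genes of the melanin list, 6 were in the set. Of the 17 neither in the set nor set aside, 4 were higher in red tails at a limma adjusted p under 0.05. The share over all tested entries was 2.71%. In yellow tails 2 of the 17 were higher and 1 lower, beside 1.49% and 0.349% of all tested entries. The melanin genes dct, oca2 and gpr143 passed in neither strain, and pmela only in yellow tails. The gene mlana encodes a melanosomal membrane protein and stood at 2316, 3322 and 1745 normalized reads in red tails, against 283, 148 and 315 in MZCS002 females. It stood at 1478, 2010.2 and 1520.0 in yellow tails and 276, 256 and 287 in GRZ-BELL females. The choice of the set requires both coloured groups to lie above their females, and the log2 differences of mlana were 3.33 and 2.60. The ion channel gene trpm1b, expressed in melanocytes, had 1236, 914 and 919.8 in red and 1111, 1384 and 1370.2 in yellow tails, and 68.3, 107 and 139 and 99.8, 76.6 and 109 in the respective females. Its coloured groups overlapped each other and its female groups did too. The tyrosinase-related enzyme gene tyrp1b had 921, 1516 and 645 in red and 820.0, 1006 and 529 in yellow tails, with 255, 223 and 183 and 75.2, 129.9 and 164 in females. Its differences were 2.14 in MZCS002 and 2.69 in GRZ-BELL, and each female library held reads of it.

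Further melanosome genes had lower levels in females, with at most 9.88 normalized reads of gpnmb and 6.29 of rab38b. The gene gpnmb, whose product is found in melanosomes and also in macrophages, had 617, 897 and 587 in red tails against 9.88, 9.43 and 1.36 in females, and 1966, 3585 and 1082 in yellow tails against 9.40, 6.66 and 3.91. The melanosome traffic gene rab38b had 128, 171 and 103 in red and 42.1, 56.4 and 28.9 in yellow tails. Its MZCS002 females stood at 6.29, 3.14 and 5.44, and only 2 reads were found in the 3 GRZ-BELL female libraries, a ratio of means of 54.3 (95% counting interval from summed reads 20.1 to 619). Red tails lay above yellow tails for rab38b in each library. Of all tested entries, 16.9% had every red library above every yellow one, and 17.2% had the reverse. The tetraspanin gene tspan10 had 393, 637 and 397 in red and 147, 270.1 and 125 in yellow tails, with 13.5, 31.4 and 18.4 and 21.1, 19.2 and 18.8 in females. The protease gene bace2, whose mammalian product cuts the melanosome fibril protein PMEL, had 616, 1197 and 522 and 556, 1009 and 353 in the coloured tails and 91.1 to 205 in the 6 female libraries.

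Of 25 tested genes of the guanine list, 5 were in the set, and apoda.1, fhl2a and prtfdc1a had been placed on that list with their values known. Of the 19 neither in the set nor set aside, 2 were higher in red tails at a limma adjusted p under 0.05. The share over all tested entries was 2.71%. In yellow tails 1 of the 19 was higher and 1 lower, beside 1.49% and 0.349% of all tested entries. The genes ltk and tdh passed in neither strain. The gene apoda.1, of the apolipoprotein D family, had the largest difference of the set, with 2058, 3657 and 2809 in red tails. MZCS002 females stood at 0.90, 3.14 and 0, which is 2 reads in all. It had 6002, 9910.3 and 7094 in yellow tails and 29.4, 0.83 and 6.25 in GRZ-BELL females, whose first library held most of the reads. Every yellow library lay above every red one. The gene fhl2a, of a LIM domain protein and in zebrafish a gene of iridophores, had 452, 1183 and 1382 in red and 2673, 5964 and 1964 in yellow tails, against 1.80, 3.14 and 5.44 and 14.1, 0.83 and 0.78 in females. The gene tfec, a MiT family transcription factor that zebrafish iridophores need, had 374, 469 and 274 and 493, 763 and 454 in the tails and 46.7, 94.3 and 72.7 and 62.3, 63.3 and 48.5 in the females. Its tail groups overlapped, and both stood above every female library, which the choice of the set favours.

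Some enzymes of purine handling were in the set, inside and outside that list. Many others on the list were called in neither strain, among them pnp5b, pnp6, prtfdc1b, hprt1, gart, ppat, pfas, adsl, adss2 and impdh2. Differences were 0.03 and -0.19 for pnp5b and -0.63 and 0.20 for prtfdc1b, in MZCS002 and GRZ-BELL. The genes atic and aprt were called higher in red tails only. The purine nucleoside phosphorylase gene pnp5a had 3086, 5105 and 1138 in red and 1970.2, 4276 and 1330.3 in yellow tails, and 40.4, 44.0 and 32.6 and 213, 58.3 and 158 in the females, so that GRZ-BELL females lay above MZCS002 females. The gene prtfdc1a, related to the purine salvage enzyme HPRT, had 353, 577 and 769 in red and 336, 763 and 337 in yellow tails and at most 9.43 in any female library. Other genes with related roles were outside the lists and are grouped here after their values were seen. They are uraha, which encodes 5-hydroxyisourate hydrolase of urate breakdown, the guanine deaminase gene gda, the adenosine deaminase gene ada2b and slc23a4, in rats a nucleobase transporter. The gene gda had 32.7, 46.6 and 30.9 in red and 112, 158 and 67.3 in yellow tails. Its MZCS002 females stood at 9.88, 0 and 29.9, with the 0 in the shallow MZCS002 female 2. The log2 difference of 2.42 in MZCS002 includes that 0, and the ratio of means there was 2.8. GRZ-BELL females stood at 18.8, 8.33 and 10.2. For ada2b the tails had 124, 339.7 and 182 and 219, 494 and 173, with 10.8 to 31.4 in females. For slc23a4 they had 148, 260.2 and 146 and 262, 834 and 113, with at most 8.16 in females. The coloured groups of the strains overlapped for ada2b and slc23a4, whereas each yellow library lay above each red one for gda.

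The set held 2 of 15 tested genes of the pteridine list, beside the 3 set aside, and 1 of 6 of the carotenoid list. At a limma adjusted p under 0.05, 3 of the 10 other pteridine genes were higher in red tails and 1 in yellow tails. Of the 5 other carotenoid genes, 1 was lower in red tails, and in yellow tails 1 was higher and 1 lower. Among all tested entries, 2.71% were higher and 1.82% lower in red, and 1.49% and 0.349% in yellow tails. The genes gch1, spra, qdpra, csf1rb and bnc2 passed in neither strain. The gene csf1b, whose product binds the Csf1 receptor, had 593, 1047 and 685 in red and 1242, 1931 and 1137 in yellow tails, with 144, 157 and 247 and 199.7, 282 and 288 in females. Its yellow libraries all lay above its red ones. The aldehyde oxidase gene aox6 had 80.9, 103 and 80.7 in red and 606, 1681 and 339 in yellow tails, with 12.6 to 40.1 in the 6 female libraries. Its difference was 2.04 in MZCS002, just above the threshold of 2, and 4.77 in GRZ-BELL. The lowest MZCS002 female value of aox6, 12.6, came from the shallow MZCS002 female 2, beside 17.1 and 40.1. The perilipin gene plin6, known from carotenoid droplets of fish, had 956, 1095 and 942 in red and 356, 751 and 360.1 in yellow tails, with 119, 31.4 and 124 and 85.8, 8.33 and 35.2 in females. Levels of plin6 in red lay above those in yellow tails in each library.

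**Figure D3:**
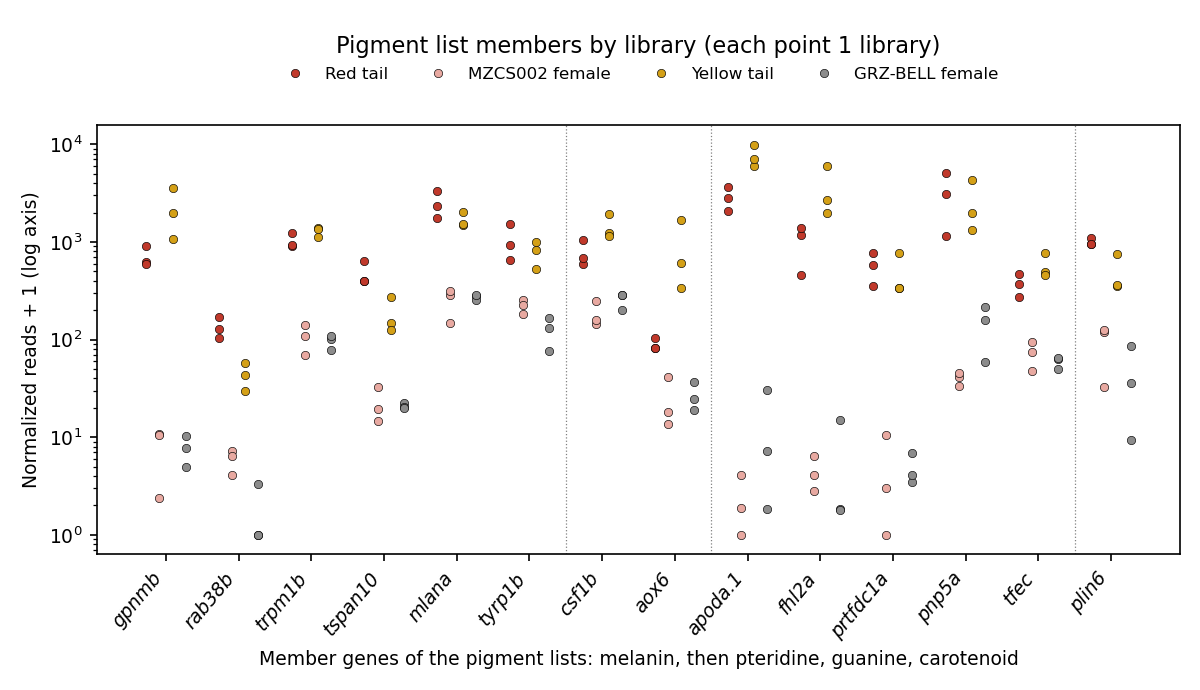
Normalized reads + 1 (log axis) of the 14 pigment list genes of the set, 1 point per library, coloured by group. As the choice requires, red points lie above the pale red MZCS002 female points and yellow points above the grey GRZ-BELL female points. Red and yellow are ordered differently from gene to gene, as in tspan10 (red higher) and aox6 (yellow higher).

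The pigment list genes that neither belong to the set nor were set aside, 61 in number, were tested between tails and females. These are the contrasts that chose the set. The lists were drawn up with earlier results of these data known, and the split was made after seeing the data. The counts therefore describe these genes and give no independent support. In limma, 11 were higher and 1 lower in red tails than in MZCS002 females at a Benjamini-Hochberg adjusted p under 0.05, beside 2.71% higher and 1.82% lower among all tested entries (4.53% in all). In yellow tails 7 were higher and 3 lower than in GRZ-BELL females, beside 1.49% and 0.349% (1.84% in all). Their median difference was 0.47 in red and 0.37 in yellow tails, against 0.014 and -0.025 over all tested entries. The genes called higher in both strains were mreg, of melanosome transport, and the neural crest factor gene foxd3. Melanoregulin gene mreg differed by 3.99 ± 0.29 (SE) in MZCS002 and 1.62 ± 0.29 in GRZ-BELL, below the threshold of the set. The genes called lower were the lipase gene lpla in both strains and, in yellow tails, the cystine transporter gene slc7a11 and the endothelin receptor gene ednrbb. The count of higher genes in red tails was 6 without red 1 and 5 without red 2. Of the 15170 tested entries, 163 and 126 were then called higher, against 411 in the main fit (1.6% and 1.13% in either direction). In yellow tails the count of higher list genes was 4 without yellow 1 or without any 1 of the GRZ-BELL females. It was 3 without yellow 2 and 11 without MZCS002 female 2. Of all tested entries, 226 were called higher in yellow tails in the main fit. That number was 148 without yellow 1, 137 without yellow 2 and 394 without MZCS002 female 2. Without GRZ-BELL females 1, 2 and 3 it was 165, 151 and 168.

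Most of the set lies outside these lists, and some of these genes were abundant. The transmembrane protein gene tmem130 had 118865, 152140.2 and 47647 normalized reads in red tails, 9897, 19552 and 10413 in yellow tails, 984, 361 and 1489 in MZCS002 females and 2180, 632 and 701.2 in GRZ-BELL females. In red tails it made up 56.4% of the summed value of the 115 genes. The set as a whole took 0.889% to 2.11% of the values of a red library and 0.507% to 1.21% of a yellow one, against 0.025% to 0.070% in females. The gene agmo encodes alkylglycerol monooxygenase, an enzyme that uses tetrahydrobiopterin, a pteridine. It had 18189.8, 21737 and 11859.8 in red tails and 1569, 3270.2 and 1091 in yellow tails, with 339, 59.7 and 369 and 509, 311 and 346 in females. Each red library lay above each yellow one. The cartilage matrix gene ucmaa, at 3679.8, 4023 and 2341 in red and 1558, 2068 and 2147 in yellow tails, was also well expressed in females, at 194 to 820 across both groups.

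Several genes known from light sensing in the eye were in the set. They were picked out after the values were seen, and no list of such genes was tested. The retinoid isomerase gene rpe65a had 33.6, 44.2 and 34.7 in red and 93.3, 71.2 and 41.2 in yellow tails, and 9 reads in all 6 female libraries. The RGR opsin gene rgra had 136, 255 and 55.8 in red and 28.1, 54.7 and 19.2 in yellow tails, with at most 7.48 in females. The phosducin gene pdcb, which regulates phototransduction, had 36.2, 102 and 89.0 and 157, 142 and 170.4, with up to 20.8 in females. Each red library was above each yellow one for rgra and below each yellow one for pdcb.

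Further genes with known roles were spread over secretion, transport and transcription. The complement and plasmin inhibitor genes serping1 and serpinf2b both had all red libraries above all yellow ones, serpinf2b at 206, 261 and 256 against 41.1, 88.6 and 39.9. The circadian repressor gene bhlhe41 had overlapping tail groups, with 1051, 1158 and 1201 in red and 916, 1570.0 and 829 in yellow, and stood at 72.3 to 223 in the female libraries. The autophagy gene map1lc3c had 63.7, 70.7 and 85.2 and 52.2, 47.8 and 78.3 in the tails and at most 5.47 in females. The chloride channel gene ano2b had 30.1, 42.6 and 12.1 in red and 72.3, 126 and 64.6 in yellow tails, with 6 reads in all female libraries. The gene gsg1l2b had no read in MZCS002 females, where red tails were at least 5.3-fold higher (against 3 reads per library). It had 1 read in GRZ-BELL females, a ratio of 134 (95% counting interval 21.4 to 4849).

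Among genes with an uncharacterised symbol, zgc:77375 had 202, 357 and 269 in red and 243, 612 and 191 in yellow tails and at most 3.59 in females. The gene si:dkey-251i10.2 had 2074, 5339 and 8414 in red and 9830.0, 16495 and 7858 in yellow tails, with 20.3 to 156 in females. Of the entries without a symbol, those with the largest smaller difference of the 2 strains were XM_015970848 (8.04 and 8.33), XM_015969501 (7.40 and 8.29), XM_015973502 (6.77 and 8.11) and XM_015972732 (6.67 and 8.02), for MZCS002 and GRZ-BELL in that order. No female library held more than 32.9 normalized reads of any of them.

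A few genes of the set are neighbours in the genome. Of 83 that could be placed in the gene order of assembly NfurGRZ-RIMD1, 4 (4.8%) had another gene of the set as the next protein-coding gene, as the pairs XM_015972732 with si:dkey-251i10.2 and dgkb with agmo. The share of such neighbours over all genes was not computed. Between XM_015957583 and tfec lay 1 other protein-coding gene. The spans of the paired genes did not overlap in that table. Among these neighbours, agmo was higher in red tails and dgkb, a diacylglycerol kinase gene, in yellow ones, with tests given below. Among the 83 matched entries, no gene held more than 1, and the 32 entries without a match could not be checked.

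Within each coloured group, most genes of the set were highest in the same library. Of the 115, 97 (84.3%) were highest in the yellow 2 library of the 3 yellow tails, against 37.7% of all tested entries, and 80 (69.6%) were highest in red 2 of the red tails, against 28.8%. The median gene lay 0.58 (log2) above its group mean in yellow 2 and 0.38 above it in red 2, and between -0.30 and -0.15 in the other coloured libraries. The median coefficient of variation was 32.3% in red and 40.3% in yellow tails, against 23.2% and 23.5% over all tested entries. Among the exceptions, the gene rprma had 74.9, 9.64 and 77.7 in red and 21.1, 5.21 and 27.5 in yellow tails, lowest in the libraries where most of the set was highest. In red 2 uraha stood far above the other red libraries, at 259, 2069.5 and 146.

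**Figure D4:**
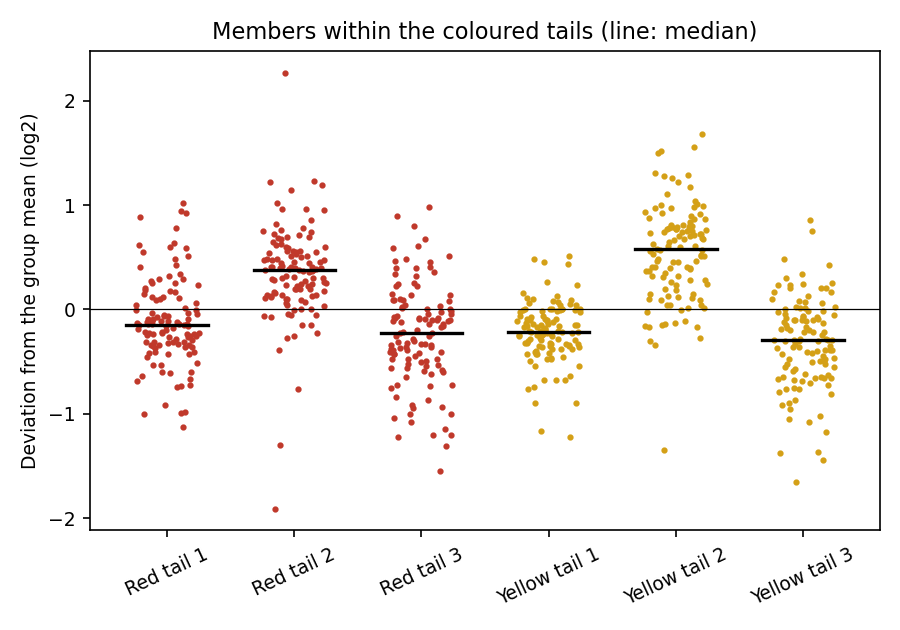
Deviation of each of the 115 genes from its group mean (log2(value + 1)) in the 3 red and 3 yellow tail libraries, with a line at the median. The medians of red 2 (0.38) and yellow 2 (0.58) lie above 0 and those of the other 4 libraries below it.

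Between red and yellow tails, a contrast that did not choose the genes, most of the set was not called, like most tested entries. The difference ranged from -3.30 to 4.40. It was within 1 (log2) of 0 for 61 of 115 genes, a share not computed over all tested entries. It was positive, meaning higher in red, for 53 genes and negative for 62. The median was -0.22, against -0.011 over all tested entries, and turned to 0.088 when yellow 2 was left out. The tail groups did not overlap for 21 genes higher in red (18.3%) and 32 higher in yellow (27.8%), beside 16.9% and 17.2% of all tested entries. In limma, 13 genes (11.3%) had a Benjamini-Hochberg adjusted p under 0.05, 7 higher in red and 6 higher in yellow tails, beside 7.43% of all tested entries (3.85% higher in red, 3.58% higher in yellow). With 3 libraries per group, a gene that was not called may still differ. The count was 6 without red 1 or without red 2, where 2.52% of all tested entries were called in each case, and 6 without yellow 1, where 2.25% were. It was 26 without MZCS002 female 2, where 17.2% of all tested entries were called. That library is in neither tail group but enters the shared estimate of spread, and the median difference stayed at -0.22 without it.

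The genes higher in red tails included agmo (difference 3.24 ± 0.60, SE, limma adjusted p = 0.008), tmem130 (2.91 ± 0.61, limma adjusted p = 0.013) and tspan10 (1.44 ± 0.38, limma adjusted p = 0.039). For each, all 3 red libraries lay above the 3 yellow ones, as the values given above show. Their females did not separate in the same way: the MZCS002 minus GRZ-BELL female differences were -0.95 ± 0.60, -0.29 ± 0.61 and 0.01 ± 0.38, none called. The call of agmo held with each library left out in turn. That of tmem130 was lost without red 1, red 2, yellow 1 or yellow 3 (highest limma adjusted p 0.069), and that of tspan10 without any of 8 libraries, among them all 3 red ones (highest 0.17).

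The genes higher in yellow tails included vtna, which encodes the matrix protein vitronectin. It had 2436, 7817 and 1976 in yellow and 238, 390.3 and 425 in red tails, with 11.7 to 25.1 in the 6 female libraries, a difference of -3.30 ± 0.46 (limma adjusted p = 0.0015). The gene aox6 differed by -2.99 ± 0.55 (limma adjusted p = 0.0074). Both calls held with each library left out. The gene dgkb had 303, 405 and 258 in yellow and 74.9, 98.8 and 109 in red tails, with 7.82 to 25.8 in females, and differed by -1.76 ± 0.40 (limma adjusted p = 0.02). Its call was lost without red 1, red 2, yellow 1 or yellow 2 (highest limma adjusted p 0.086). Of the 13 calls, 5 held with each library left out, those of vtna, aox6, agmo, XM_015960963 and XM_015946305. All of the 13 were also among the 21 genes of the set called by edgeR on recovered reads, beside 7.87% of all tested entries, and DESeq2 called 32 of the set beside 15.5%.

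The remaining 7 calls were entries without a symbol, 4 higher in red and 3 higher in yellow tails. The largest was XM_015958788, with 395, 292 and 219 in red and 9.03, 19.1 and 12.4 in yellow tails, a difference of 4.40 ± 0.93 (limma adjusted p = 0.015). Its call was lost without red 1, red 2 or yellow 1 (highest limma adjusted p 0.073). Among those higher in yellow, XM_015960963 was even within groups, at 473, 478 and 470.0 in yellow and 109, 108 and 121 in red tails (-2.06 ± 0.37, limma adjusted p = 0.0068). These were picked out after their values were seen.

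Pigment list genes of the set other than tspan10 and aox6 were not called between the tails. The tail groups did not overlap for apoda.1, fhl2a, gpnmb and csf1b, higher in yellow, and for rab38b and plin6, higher in red. Of all tested entries, 17.2% did not overlap with yellow higher and 16.9% with red higher. Differences were -1.44 ± 0.78 for apoda.1, -1.80 ± 0.76 for fhl2a, -1.52 ± 0.58 for gpnmb and -0.89 ± 0.31 for csf1b (limma adjusted p 0.28, 0.16, 0.13 and 0.096). They were 1.66 ± 0.56 for rab38b and 1.12 ± 0.69 for plin6 (limma adjusted p 0.091 and 0.35). The tail groups of the remaining genes overlapped, with differences of 0.52 ± 0.31 for mlana, -0.34 ± 0.28 for trpm1b and 0.35 ± 0.37 for tyrp1b (limma adjusted p 0.32, 0.48 and 0.6). They were -0.61 ± 0.32 for tfec, 0.23 ± 0.58 for pnp5a and 0.28 ± 0.70 for prtfdc1a (limma adjusted p 0.27, 0.85 and 0.84).

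Between females of the strains, the other contrast that the choice did not use, 1 of the 115 genes (0.87%) was called, beside 1.74% of all tested entries (0.817% higher and 0.923% lower in MZCS002). These shares are not alike in depth, since the median level in females was 11.4 and 10.9 for the set against 204 and 201 for all tested entries, and low levels limit what can be called. The gene was uraha, at 4.49, 6.29 and 5.44 in MZCS002 and 91.6, 103 and 75.8 in GRZ-BELL females, a difference of -3.83 ± 0.71 (limma adjusted p = 0.015), while its tail groups overlapped (259, 2069.5 and 146 in red, 605, 1093 and 661 in yellow). The call was lost without any 1 of the GRZ-BELL females (highest limma adjusted p 0.067) and in edgeR (adjusted p = 0.052). At an adjusted p under 0.05, edgeR called 0 of the set beside 1.87% of all tested entries. DESeq2 called 4 beside 5.33%, and limma called 3 without MZCS002 female 3, beside 1.52%. The groups did not overlap for 7 genes higher in MZCS002 females (6.1%) and 10 higher in GRZ-BELL females (8.7%), beside 9.34% and 10.8% of all tested entries. For 86 genes the difference was within 1 (log2), a share not computed over all tested entries.

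**Figure D5:**
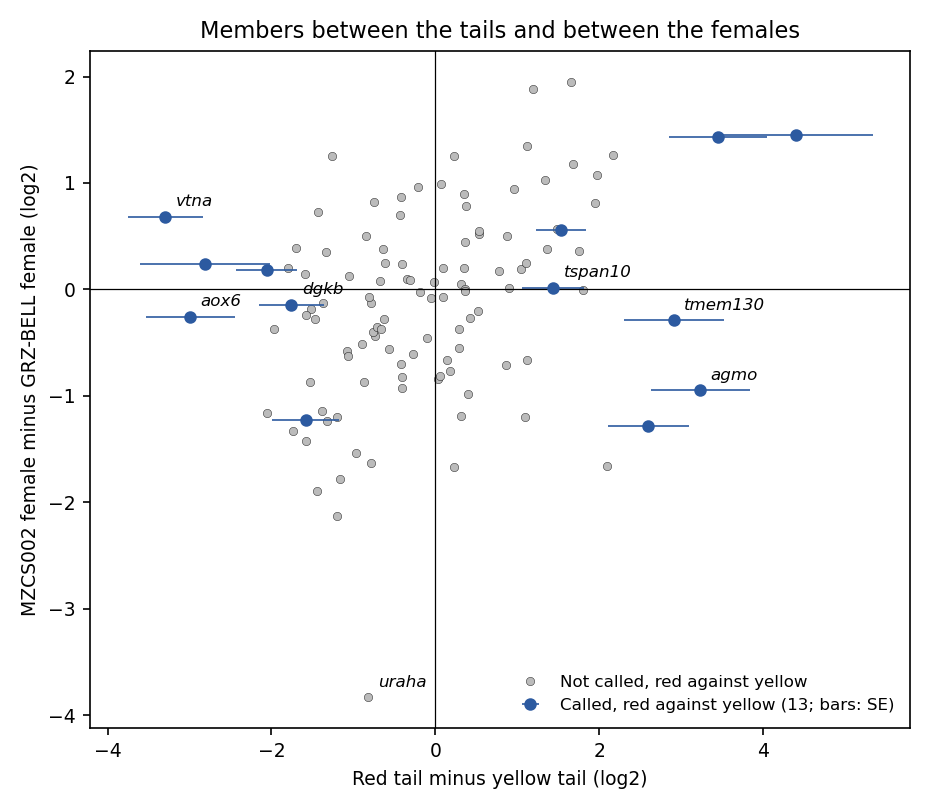
Red minus yellow tail difference (horizontal axis, log2) and MZCS002 minus GRZ-BELL female difference (vertical axis, log2) of the 115 genes, with the 13 genes called between the tails in blue with SE bars. The called genes spread along the horizontal axis from -3.30 (vtna) to 4.40, and uraha stands alone at -3.83 on the vertical axis.

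Markers of other cell types were followed beside these results, and no gene of the set was on their lists. Among all tested entries, 2.71% were called higher and 1.82% lower in red tails, and 1.49% and 0.349% in yellow tails. In red against yellow tails, 3.85% were called higher and 3.58% lower in red. Of 7 blood genes, 2 were called higher in yellow tails (slc4a1a and tfr1a) and none in red tails. The list's summed level was 1387 to 1601 in red and 1732 to 2301 in yellow tails against 650 to 1128 and 683 to 1255 in the females. Most of that sum in red tails came from urod and tfr1a, with means of 682 and 645. Red tail means of slc4a1a, hemgn, gata1a, alas2 and sptb were 7.04 to 47.0. Between the tails 2 of the 7, slc4a1a and gata1a, were called lower in red (-3.14 and -2.64), and the list's median was -2.22 against -0.011 over all tested entries. Of 12 immune genes none was called in either strain, with summed levels of 19109 to 36169 in red tails and 18854 to 29778 in MZCS002 females, and 12677 to 20131 in yellow tails against 13642 to 34631 in their females. Muscle genes summed to 36.9 to 60.2 in red tails against 91.1 to 417 in MZCS002 females, with 1 of 5 called lower. Summed levels of vessel genes were 329 to 382 in red tails and 418 to 478 in MZCS002 females, and those of bone and fibroblast genes 215068 to 394724 and 136261 to 213924, with 2 of 13 called higher. In yellow tails 0 of 8 vessel and 0 of 13 bone and fibroblast genes were called, while epidermis had 0 of 8 called and nerve 1 of 5 lower in red tails. Among 8 sex steroid genes, 1 was called higher in red tails (ar) and none in yellow tails. Between the tails, 1 bone and fibroblast gene (and2, 3.66) and 1 sex steroid gene (srd5a3, 1.53) were called higher in red. No marker of these lists was at 0 in all libraries except foxl2a. The part of these cell types in the results was not tested.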

How the data were processed

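Each library's values were deposited by the authors as a signal, namely reads per transcript after division by a size factor, which the submitters' processing notes link to DESeq2. They list Trimmomatic, STAR and featureCounts as well. Tool versions, genome build, strand setting and filters were not stated. All values were whole multiples of 1 read's worth within 0.01 of a read, so reads were recovered. No molecular identifiers are described, and the intervals and floors (3 reads per library) cover counting error only.

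Samples were grouped by title. Symbols came from a RefSeq gene table (assembly NfurGRZ-RIMD1) through the transcript accessions, for 14145 entries (68.0%). Reads from near-identical copies or from overlapping antisense genes could be split or shared between entries. Differences were tested two-sided with limma 3.58.1 (R 4.3.3, moderated with a trend) on log2(value + 1), over 15170 entries with a mean of at least 10 and all 12 libraries in 1 fit, with Benjamini-Hochberg adjustment over all of them. This scale understates the change of low genes. The fit was tested on simulated data. Alternatives were edgeR 4.0.16 and DESeq2 1.42.0 on the recovered reads, other pseudocounts, filters and scalings, and libraries left out.

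The genes of the set and the 13 lists were chosen with earlier results of these data known, and apoda.1, fhl2a and prtfdc1a were placed in the guanine list with their values known. Genes with a symbol were named by rule: the 10 with the largest smaller difference, the 6 most abundant in the tails, all in the 5 pigment lists, those called in a tested contrast, and the 3 entries on either side of the threshold. Without a symbol, 4 were named by difference. Others were chosen after their values were seen, among them gda, ada2b, rgra, pdcb, bace2, serping1, serpinf2b, bhlhe41, map1lc3c, ano2b and rprma. In the main fit, limma p-values set each difference of group means against the spread between these libraries, estimated per entry over all 4 groups. Sequences and promoter motifs were not analysed here.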

Additional observations from a re-analysis of the deposited data

How the results depend on the processing

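The set numbered 115 and held 61 genes at a threshold of 3. It was within 1.5 times of 115 under the other pseudocounts, filters, scalings and a threshold of 1.5, and ran from 105 to 128 with a library left out. Of the genes called between red and yellow tails (13), the count was 22 with a pseudocount of 5 (beside 7.91% of all entries), 36 in a fit on only those groups (11.6%), 21 in edgeR (beside 7.87% of all entries) and 32 in DESeq2 (15.5%). With a library left out it ran from 6 (without red 1, red 2 or yellow 1, where 2.52%, 2.52% and 2.25% of all entries were called) to 26 (without MZCS002 female 2, where 17.2% were). MZCS002 female 2 is in neither tail group but enters the shared estimate of spread. The median difference of the set stayed at -0.22 without it. The cause of the changes in count was not tested. Between females the count of 1 was 0 in edgeR (1.87% of all entries called). It was 4 in DESeq2 (5.33%). Leaving out a library gave 0 (any 1 of the GRZ-BELL females, 0.732% to 0.877%) to 3 (MZCS002 female 3, 1.52%). Calls between tails and females are not counted over whole pigment lists, which include genes chosen by the same contrasts. Among the 61 list genes outside the choice, a split made after seeing the data, 4 were higher in red tails in a fit on only those groups and 3 in yellow tails under equal totals, against 11 and 7. Of all entries, 0.738% and 1.42% were called in those settings. Under equal totals the median entry shifted to 0.25 in red and -0.093 in yellow tails. Of 322 single-gene values under alternatives, 269 kept their call, 53 lost it and 0 changed sign. With the replicate number as a block, 11 genes of the set were called between the tails and 1 between the females. The shares of all entries were 5.5% and 1.38%. Of the 61 list genes, 10 were then higher and 1 lower in red tails, and 5 higher and 1 lower in yellow tails. Of all entries, 2.29% and 1.58% were called in those contrasts. Over all tested entries, deviations of same-numbered libraries correlated at 0.15, 0.17 and 0.04 between the tails (2 of 3 highest with their own number) and at -0.10, -0.16 and -0.12 between the females. Not every pair passed 0.1, so the numbers were not taken to pair samples, although red 2 and yellow 2 were both highest for most of the set. A planned search of promoters for motifs was not run. Depth limits low genes, above all in MZCS002 female 2.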
